A study of Mus musculus with 6 samples.

Results

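Gene deserts were defined here as stretches of 1 Mb or more on the autosomes that overlap the body of no protein-coding gene, with the first 3.5 Mb of each chromosome left out. In the mm10 gene table used (RefSeq, GRCm38.p6) 246 stretches met the definition, with 447 Mb in all, and 8704 whole 50 kb bins lay inside them. Of these, 8703 had contacts in at least 1 library, which is 18.2% of the 47875 autosomal bins with contacts. The contact maps came from in-situ Hi-C on mouse embryonic stem cells of strain 129. In this assay crosslinked nuclei are cut with MboI, an enzyme that cuts at GATC, and ends lying close together are joined and counted as contacts. There were 3 libraries labelled Del8 (genotype GFP-CTCF-Del8), from cells whose CTCF lacks zinc finger 8, and 3 libraries labelled wild type (WT). The series describes the comparison cells as expressing GFP-CTCF, and the labels leave unsettled if the WT libraries carry that tag. The series calls the 3 libraries of a group biological replicates. How many clones stand behind each genotype is not stated in the labels, and the p-values measure the spread between these libraries.

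CTCF is a DNA-binding protein with a row of zinc fingers. It stops the cohesin ring as cohesin extrudes loops of chromatin, and so sets many of the boundaries between contact domains. Gene deserts are AT-rich on the whole, replicate late, often lie at the nuclear lamina and contact each other in the inactive B compartment. Some deserts beside genes for developmental transcription factors hold long-range enhancers of the flanking gene, whereas many others lie beside large genes for neuronal adhesion.

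Inside deserts, the promoters of non-coding genes are the stretches whose sequence was at hand. The 4 windows shown, which give examples of desert DNA near contact boundaries, are the RefSeq windows (GRCm38.p6, 300 bases, 5' to 3' on the gene's strand) of long non-coding RNA genes that lie in the same 50 kb bin as a tested boundary. Capitals mark the MboI site GATC, the point where the assay can cut. Gm31416 lies on the minus strand at chr10:66834290-66834589 in the Ctnna3 to Reep3 desert, and 4930534H03Rik on the minus strand at chr10:91220570-91220869 in the Tmpo to Nedd1 desert. Gm51586 lies on the minus strand at chr8:95902187-95902486 in the Got2 to Cdh8 desert, and Gm39236 on the plus strand at chr8:104059622-104059921 in the Cdh11 to Cdh5 desert.
Gm31416: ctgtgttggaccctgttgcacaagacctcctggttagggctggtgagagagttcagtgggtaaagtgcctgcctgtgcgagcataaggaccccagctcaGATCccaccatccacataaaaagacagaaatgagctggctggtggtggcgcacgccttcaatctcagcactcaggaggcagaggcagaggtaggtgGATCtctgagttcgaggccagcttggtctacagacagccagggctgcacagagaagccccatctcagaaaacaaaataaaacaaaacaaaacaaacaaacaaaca
4930534H03Rik: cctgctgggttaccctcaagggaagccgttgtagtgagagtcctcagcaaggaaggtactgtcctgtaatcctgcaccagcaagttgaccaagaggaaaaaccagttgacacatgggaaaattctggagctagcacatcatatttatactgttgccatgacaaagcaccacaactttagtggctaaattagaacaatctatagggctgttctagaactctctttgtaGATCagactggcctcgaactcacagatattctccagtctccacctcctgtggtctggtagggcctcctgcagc
Gm51586: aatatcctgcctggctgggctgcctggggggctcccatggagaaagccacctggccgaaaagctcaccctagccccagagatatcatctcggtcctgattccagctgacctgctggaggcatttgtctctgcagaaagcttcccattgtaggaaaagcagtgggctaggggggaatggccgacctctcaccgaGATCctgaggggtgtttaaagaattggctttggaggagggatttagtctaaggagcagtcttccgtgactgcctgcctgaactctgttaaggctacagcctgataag
Gm39236: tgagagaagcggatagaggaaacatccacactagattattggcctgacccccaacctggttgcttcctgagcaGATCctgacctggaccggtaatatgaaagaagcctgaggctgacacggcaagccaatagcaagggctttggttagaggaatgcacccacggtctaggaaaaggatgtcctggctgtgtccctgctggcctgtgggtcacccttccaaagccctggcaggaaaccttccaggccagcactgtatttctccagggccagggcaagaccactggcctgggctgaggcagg
The core of the CTCF motif was searched on both strands as CC, any 3 bases, AG, any 2 bases and GGC, and none of the 4 windows held it. The windows cover 300 bases of a 50 kb bin, and the rest of each bin was not searched, so this says nothing of CTCF at the boundary. It was present in 24 (2.71%) of the 886 non-coding windows inside deserts, in 6.61% of the 10360 non-coding windows elsewhere and in 8.72% of all 31194 windows. The site GATC reads the same on both strands and was present in 51.6% of the desert windows, against 50.2% of the non-coding windows elsewhere and 47.7% of all windows. The desert windows had a median GC content of 43.3%, against 49.0% for the non-coding windows elsewhere. Within deserts it was 45.0% in the 323 windows whose bin was listed in every library as the lower-coordinate member of a pair and 42.0% in the 563 others, and the GATC share was 53.3% and 50.6%.

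The deserts were between 1.01 and 4.54 Mb long with a median of 1.499 Mb. At the lower limit, the shortest desert had 1006274 bp and the longest stretch left out had 996795 bp, and 33 deserts were shorter than 1.1 Mb while 34 stretches of 0.9 to 1 Mb fell just outside. There were 72 deserts of 2 Mb or more and 27 of 3 Mb or more. The longest lay on chromosome 14 (88471397 to 93013699) between Pcdh20 and Pcdh9, both protocadherins of neurons. The next were the desert of chromosome 18 (25754521 to 30265614) between Celf4, a neuronal RNA-binding protein, and Pik3c3, a lipid kinase of vesicle traffic, and that of chromosome 14 (80023142 to 84443562) between Olfm4 and Pcdh17. They were followed by the desert of chromosome 1 (100490600 to 104768339) between Cntnap5b and Cdh20 and that of chromosome 8 (49522825 to 53511682) between Tenm3, a teneurin of synapse wiring, and Aga. A desert is not free of transcription units. The table puts 1044 long non-coding RNA genes in 228 of the deserts, 1182 pseudogenes in 238 and 59 miRNA genes in 33. Another 481 variable segments of antigen receptors lie in 3 deserts, on chromosomes 6, 12 and 14.

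The libraries held between 24038030 and 66266759 contacts, all between bins of 1 chromosome, and the deposited tables did not list every bin. In each library some bins never occurred as the lower-coordinate member of a pair and had no within-bin count, so that their contacts were present as the partner of a listed bin. WT replicate 3 was an exception for 211 contacts of an unlisted lower-coordinate bin with a listed bin, and for a further 18 that joined 2 unlisted bins. Among desert bins the unlisted ones numbered 48 (0.552%), 746 (8.57%) and 3372 (38.7%) in Del8 replicates 1, 2 and 3, against 7171 (82.4%), 7234 (83.1%) and 969 (11.1%) in WT replicates 1, 2 and 3. Among all other autosomal bins the unlisted share was 2.05, 3.44 and 9.13% in the Del8 replicates and 30.3, 30.2 and 3.71% in the WT replicates. WT replicates 1 and 2, the 2 shallowest libraries, thus stood apart from the other 4. The number of desert bins with 20 or more contacts was 8687, 8684 and 8683 in the Del8 replicates and 8101, 8011 and 8685 in the WT replicates, and 7919 desert bins had 20 or more in every library. That threshold does not remove the unlisted bins, since a bin can pass it through partners alone.

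Listing went with coverage, and within the lower classes of coverage desert bins were listed less often than other bins. Coverage is given here over the library's reference coverage, which is the median of the bins listed in all 6 libraries. Among bins with 0.4 to 0.5 of the reference in Del8 replicate 1, 0.873% of desert bins were listed in WT replicate 1. For other bins it was 4.02%, and at 0.5 to 0.6 the shares were 15.9% and 23.6%. Among bins with 0.6 to 0.7 of the reference in Del8 replicate 1, 54.3% of desert bins and 62.1% of other bins were listed in WT replicate 1. Above 1.0 of that reference all desert bins and 99.98% of other bins were listed there. The deserts' low coverage was present in the well-listed libraries too. The median desert bin had 0.439, 0.435 and 0.387 of its library's reference coverage in the Del8 replicates and 0.446 in WT replicate 3. Bins outside deserts had 0.827, 0.827 and 0.829 in the Del8 replicates and 0.830 in WT replicate 3. In WT replicates 1 and 2 the median desert bin had 0.0540 and 0.0499 of the reference.

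**Figure D1:**
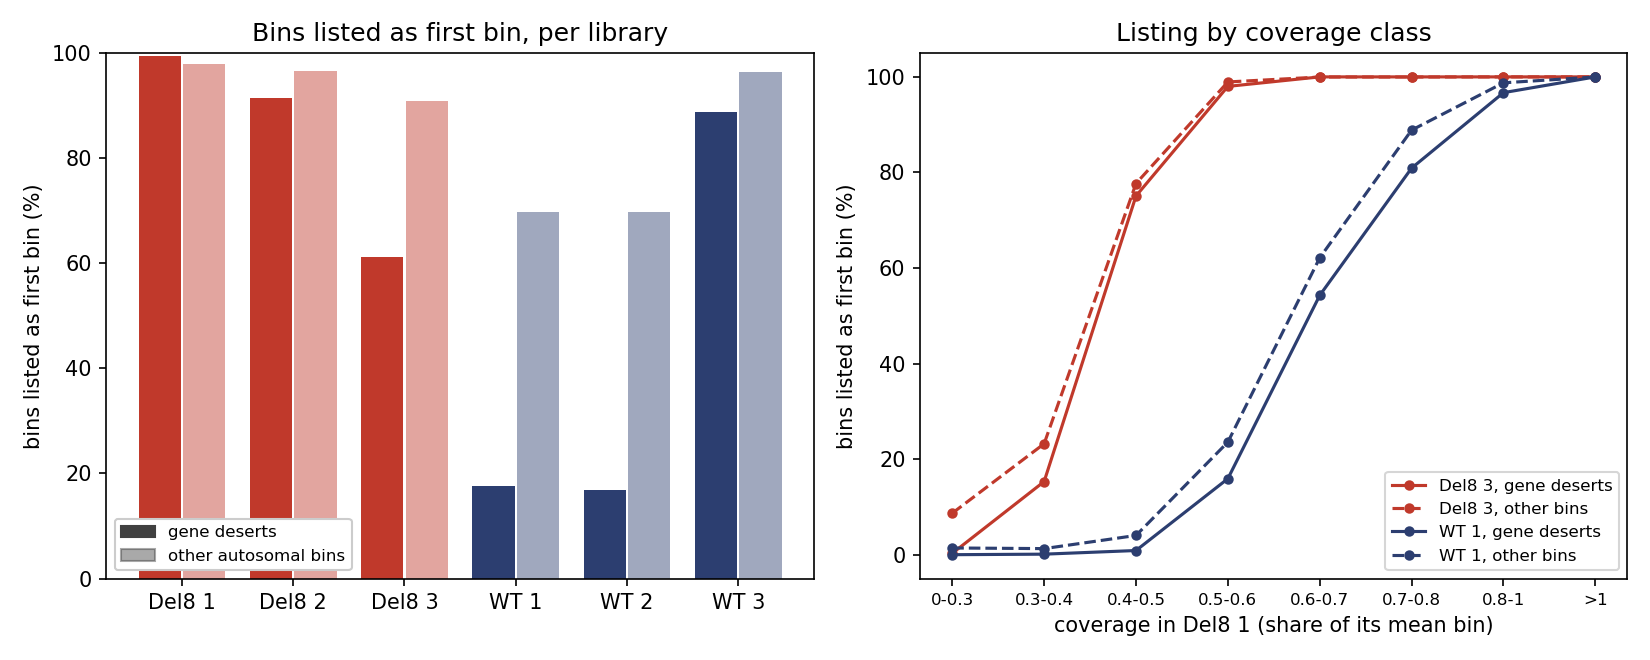
Left, share of 50 kb bins (%) listed as the lower-coordinate bin of a pair in each library, for gene deserts (solid) and other autosomal bins (pale), Del8 in red and WT in blue. Right, the same share for Del8 replicate 3 and WT replicate 1 in classes of coverage in Del8 replicate 1, over the median of bins listed in all 6 libraries (called mean bin on the axis). Listing in WT replicate 1 begins at higher coverage than in Del8 replicate 3. Below 0.8 of that median the desert bins of a class lie below the other bins in WT replicate 1.

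Only 1313 desert bins (15.1%) were listed in all 6 libraries, against 67.3% of other bins. The results on contact patterns below use these bins unless another set is named. They are not an even sample of deserts. On chromosome 8, which had raised coverage in every library (the median bin outside deserts lay between 1.30 and 1.40 of the library's reference coverage), 68.9% of the desert bins were listed in all 6 libraries, against 11.7% on the other autosomes. The 4 deserts listed throughout were Poteg to Unc5d, Sall1 to Tox3 and Cdh11 to Cdh5 on chromosome 8 and Tbc1d22a to Tafa5 on chromosome 15, and 86 deserts had no bin listed in all 6. Of the 20 deserts with 80% or more of their bins listed, 7 lay on chromosome 8. A wider set of 5327 desert bins was listed in the 3 Del8 libraries and in WT replicate 3, and results on it are set beside the others as a comparison with 1 WT library.

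The genes at the edges of a desert went with its coverage. Of 63 regulators of development in the gene table, 21 flanked 22 deserts, and of 73 neuronal adhesion and synapse genes 45 flanked 56 deserts. The median coverage of deserts beside a regulator was 0.662, 0.674 and 0.637 of the library's reference coverage in the Del8 replicates and 0.353, 0.381 and 0.676 in the WT replicates. For deserts beside an adhesion gene it was 0.413, 0.391 and 0.244 in the Del8 replicates and 0.0735, 0.0641 and 0.382 in the WT replicates. The 168 deserts beside neither had 0.469, 0.462 and 0.386 in the Del8 replicates and 0.120, 0.101 and 0.473 in the WT replicates. Deserts beside adhesion genes were thus the sparsest class in every library. The deserts beside neither lay nearer to them than to those beside a regulator. Median length was 2.34 Mb beside adhesion genes, 1.24 Mb beside a regulator and 1.42 Mb beside neither. Across the 246 deserts coverage was lower in longer deserts (Spearman's rho -0.45, a description over stretches that share the same libraries).

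Taken over all bins as deposited, deserts held 10.99, 10.67 and 8.96% of contact ends in the Del8 replicates and 5.35, 4.92 and 10.78% in the WT replicates. The means were 10.2 ± 1.09% in Del8 and 7.02 ± 3.26% in WT (SD, n = 3 each), and the groups overlapped (two-sided exact permutation p = 0.30). The difference reversed where listing was made equal. Counting only contacts whose lower-coordinate bin was listed in all 6 libraries, at their other end, the share was 5.93, 6.03 and 6.05% in the Del8 replicates and 6.48, 6.06 and 6.30% in the WT replicates. With bins listed in the other 4 libraries it was 9.46, 9.51 and 9.65% in the Del8 replicates, against 9.72% in WT replicate 3. By edgeR's quasi-likelihood test on the counts of each desert as deposited, none of the 246 passed an adjusted p of 0.05, as none of all 2332 stretches did (0%). At an unadjusted p under 0.05 there were 7 deserts among 125 stretches by edgeR and 32 among 497 by DESeq2, which called no desert either. Without WT replicate 3 the same test called 215 deserts higher and 21 lower in Del8, among 86.7% of all stretches.

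With listing made equal, the coverage of single deserts moved little. By edgeR 14 deserts were higher and 60 lower in Del8 of the 244 tested, while 24.8% of all 2324 stretches were called, 12.9% higher and 11.9% lower. The median log2 fold change was -0.06 over deserts and -0.00 over all stretches. Among the largest rises was the desert of chromosome 13 (25269997 to 26768171) between Nrsn1, a neuronal membrane protein, and Hdgfl1. It had 205.4, 201.3 and 208.9 CPM (contacts per 1e6 of the library's contacts counted with listing made equal) in the Del8 replicates and 186, 170.3 and 185 CPM in the WT replicates. All 3 Del8 libraries lay above the WT libraries, and its log2 fold change was 0.20 ± 0.03 (SE; edgeR adjusted p = 0.0011). Lrrtm4, an organizer of synapses, and Gcfc2 flank a desert of chromosome 6 (80810163 to 81910561) that rose 1.14-fold (edgeR adjusted p = 0.00908). The other 3 of the 5 largest rises were Tox to Car8 on chromosome 4 (1.25-fold), Akr1e1 to Klf6 on chromosome 13 (1.24-fold) and Reg3g to Gm20594 on chromosome 6 (1.18-fold), with edgeR adjusted p between 0.0296 and 0.0372. Their calls were lost in 10, 5 and 6 of 12 other settings, in that order.

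The largest falls in coverage were of similar size. On chromosome 5 (50058997 to 51454248) the desert between Adgra3 and Ppargc1a, a coactivator of mitochondrial biogenesis, had 91.0, 93.8 and 92.8 CPM in the Del8 replicates and 116, 109 and 114 in the WT replicates. The groups did not overlap, with a log2 fold change of -0.27 ± 0.04 (SE; edgeR adjusted p = 0.000534). On chromosome 3 (46447990 to 49743290) the desert between Pabpc4l and the protocadherin gene Pcdh18 had 92.4, 95.7 and 96.3 CPM in the Del8 replicates and 115, 105 and 122 in the WT replicates. It fell by 0.25 on the log2 scale (SE 0.05, edgeR adjusted p = 0.00328). The remaining 3 were Gm597 to Phf3 on chromosome 1 (0.818-fold), Gm51483 to Ndn on chromosome 7 (0.820-fold), beside the imprinted gene for necdin, and Etv1 to Arl4a on chromosome 12 (0.844-fold), with edgeR adjusted p between 0.00416 and 0.0121. Of the 5 longest deserts, Pcdh20 to Pcdh9 (log2 fold change -0.12, edgeR adjusted p = 0.0498) and Cntnap5b to Cdh20 (-0.11, edgeR adjusted p = 0.031) passed, and the other 3 had log2 fold changes of -0.05 or -0.06. These calls depend on single libraries: the number called was 23 without Del8 replicate 1, 42 without Del8 replicate 2, 26 without Del8 replicate 3 and 125 without WT replicates 1 and 2, among 10.5, 14.5, 12.7 and 39.1% of all stretches in that order.

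Contact inside deserts differed more. Balanced contact between 2 bins of the same desert was divided by the mean of all pairs at that distance on the chromosome. At 500 kb to 2 Mb this ratio was 1.74, 1.72 and 1.73 in the Del8 replicates and 2.06, 2.07 and 1.99 in the WT replicates (4432 pairs). In these bins, a set chosen after the data had been examined, bins of the same desert thus met more often than other bins at that distance in every library, and less so in Del8. With all bins of 20 or more contacts in every library the group means turned round. The ratio was then 1.20, 1.19 and 1.18 in the Del8 replicates and 0.482, 0.460 and 1.34 in the WT replicates, low in WT replicates 1 and 2, where most of these bins were unlisted, and above Del8 in WT replicate 3. In bins listed in all 6 libraries the means were 1.73 ± 0.00933 in Del8 and 2.04 ± 0.0444 in WT (SD, n = 3 each), with no overlap (two-sided exact permutation p = 0.10, the smallest that 3 against 3 libraries allow, and 0.14 after Benjamini-Hochberg adjustment over the 7 values tested this way). In the wider set of bins, with 33777 pairs, it was 1.57, 1.54 and 1.56 in the Del8 replicates and 1.74 in WT replicate 3. In bins listed in Del8 replicates 1 and 2 and WT replicate 3, which hold 87.3% of the desert bins, it was 1.30 and 1.29 in the Del8 replicates and 1.44 in WT replicate 3. Pairs outside deserts lay between 0.978 and 0.980 in the Del8 replicates and between 0.975 and 0.977 in the WT replicates.

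The gap opened with distance. At 200 kb the ratio was 1.28, 1.29 and 1.28 in the Del8 replicates and 1.29, 1.29 and 1.27 in the WT replicates. At 500 kb it was 1.39, 1.39 and 1.38 in the Del8 replicates and 1.53, 1.59 and 1.49 in the WT replicates. At 1000 kb it was 1.81, 1.86 and 1.88 in the Del8 replicates and 2.23, 2.28 and 2.21 in the WT replicates. Averaged over 100 to 450 kb the ratio was 1.26, 1.28 and 1.27 in the Del8 replicates and 1.31, 1.31 and 1.29 in the WT replicates, a small difference without overlap (two-sided exact permutation p = 0.10, adjusted 0.14).

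**Figure D2:**
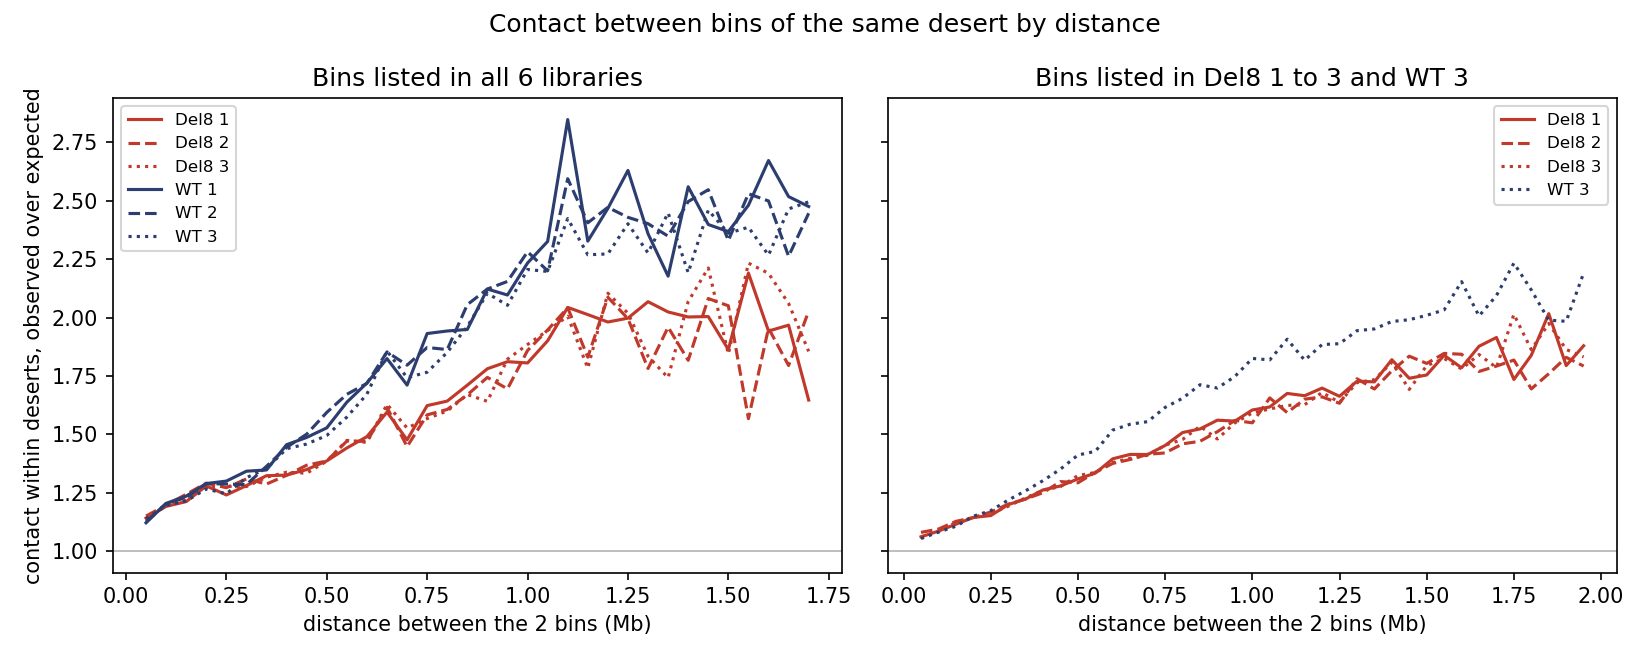
Contact between 2 bins of the same desert, observed over expected (y), by the distance between them (x, Mb), 1 line per library, Del8 red and WT blue, for distances with 50 or more pairs. Left, bins listed in all 6 libraries; right, bins listed in the 3 Del8 libraries and WT replicate 3. The lines run close together at the shortest distances, and from 500 kb on all Del8 lines lie below the WT lines in both sets, except at 1850 kb on the right.

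Contact of a desert with other deserts of its chromosome, 2 Mb or more away, went the other way. It was 1.35, 1.30 and 1.30 in the Del8 replicates and 1.22, 1.18 and 1.18 in the WT replicates, without overlap (two-sided exact permutation p = 0.10, adjusted 0.14). In the wider set of bins it was 1.36, 1.30 and 1.34 in the Del8 replicates and 1.17 in WT replicate 3. Without balancing the groups overlapped, with 0.659, 0.642 and 0.651 in the Del8 replicates and 0.673, 0.603 and 0.588 in the WT replicates. Balanced contact of deserts with all bins outside deserts, 2 Mb or more away, was higher in Del8 too. It was 1.00, 0.992 and 0.998 in the Del8 replicates and 0.959, 0.960 and 0.960 in the WT replicates, so the rise was not limited to pairs of deserts. Balancing gives every bin of a chromosome the same total contact, so a fall inside deserts and a rise farther away are not independent results. Contact of deserts with gene-dense bins, which hold 4 or more gene starts, was low in both groups, with 0.678, 0.698 and 0.664 in the Del8 replicates and 0.678, 0.643 and 0.702 in the WT replicates.

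Desert by desert, the fall inside deserts was widespread where it could be measured. Contact at 500 to 950 kb could be tested in 31 deserts with 30 or more such pairs, and by limma 20 of them were lower and none higher in Del8. Over all 1065 stretches tested, 53.5% were called, 22.1% lower and 31.5% higher. After centring every library on the median over all stretches it was 25 lower and none higher, against 32.0% lower and 23.3% higher over all stretches. Without WT replicates 1 and 2, 15 deserts were lower and none higher, against 17.6% lower and 23.8% higher over all stretches. The median log2 difference was -0.19 over the deserts and 0.03 over all stretches. Among the deserts off chromosome 8, 14 of 18 were lower, and on chromosome 8 it was 6 of 13. In the wider set of bins 193 deserts could be tested, of which 76 were lower and 2 higher in Del8 than in WT replicate 3, against 17.1% lower and 21.6% higher over all 1785 stretches. The median log2 difference there was -0.15 over deserts and 0.01 over all stretches. The 2 sets share libraries and bins and are not independent.

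The desert of chromosome 4 (53862020 to 54944490) between Tmem38b, an ion channel subunit of the endoplasmic reticulum, and Zfp462, a zinc finger gene, had the largest fall. Its observed over expected contact was 1.37, 1.33 and 1.42 in the Del8 replicates and 2.27, 2.45 and 1.92 in the WT replicates. The log2 difference was -0.69 ± 0.08 (SE; limma adjusted p = 3.51e-05). On the same chromosome (55532476 to 56740004) lies the desert beside Klf4, one of the transcription factors of the pluripotent state, and Actl7b. It had 1.70, 1.69 and 1.71 in the Del8 replicates and 2.35, 2.34 and 2.26 in the WT replicates. The Del8 values lay close together and below all WT values, with a log2 difference of -0.45 ± 0.05 (SE; limma adjusted p = 2.22e-05). Plpp3 to Usp24, also on chromosome 4 (105232768 to 106315979), had 1.24, 1.25 and 1.31 in the Del8 replicates and 1.79, 1.86 and 1.77 in the WT replicates (limma adjusted p = 1.46e-05).

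The other 2 of the 5 largest falls lay on chromosome 19. Tle4 to Psat1 (14598184 to 15905122), beside a corepressor and an enzyme of serine synthesis, had 1.53, 1.55 and 1.65 in the Del8 replicates and 2.09, 2.12 and 2.40 in the WT replicates (limma adjusted p = 7.69e-05). Adra2a to Gpam (54048983 to 55067634) had 1.37, 1.33 and 1.40 in the Del8 replicates and 1.86, 1.89 and 1.88 in the WT replicates (limma adjusted p = 1.99e-05). All 6 libraries kept to their group in both.

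Deserts beside other regulators of stem cells and development were chosen for description after their values were seen. The desert of chromosome 3 (34652462 to 35754043) between Sox2, a core factor of pluripotency, and Atp11b had 1.03, 1.01 and 0.991 in the Del8 replicates and 1.17, 1.29 and 1.28 in the WT replicates (log2 difference -0.30 ± 0.05, SE; limma adjusted p = 0.000599). In Del8 its bins thus met about as often as any bins at that distance. Fgf9 to 1700129C05Rik on chromosome 14, beside a fibroblast growth factor gene, had 1.45, 1.47 and 1.44 in the Del8 replicates and 1.94, 1.80 and 1.85 in the WT replicates (limma adjusted p = 0.000119). Not all deserts fell. Sall3 to Galr1 on chromosome 18 had 1.20, 1.22 and 1.18 in the Del8 replicates and 1.19, 1.29 and 1.13 in the WT replicates (limma adjusted p = 0.985), and the desert between the cadherin genes Cdh8 and Cdh11 had 2.09, 2.02 and 2.05 in the Del8 replicates and 2.01, 2.08 and 2.00 in the WT replicates (limma adjusted p = 0.774).

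**Figure D3:**
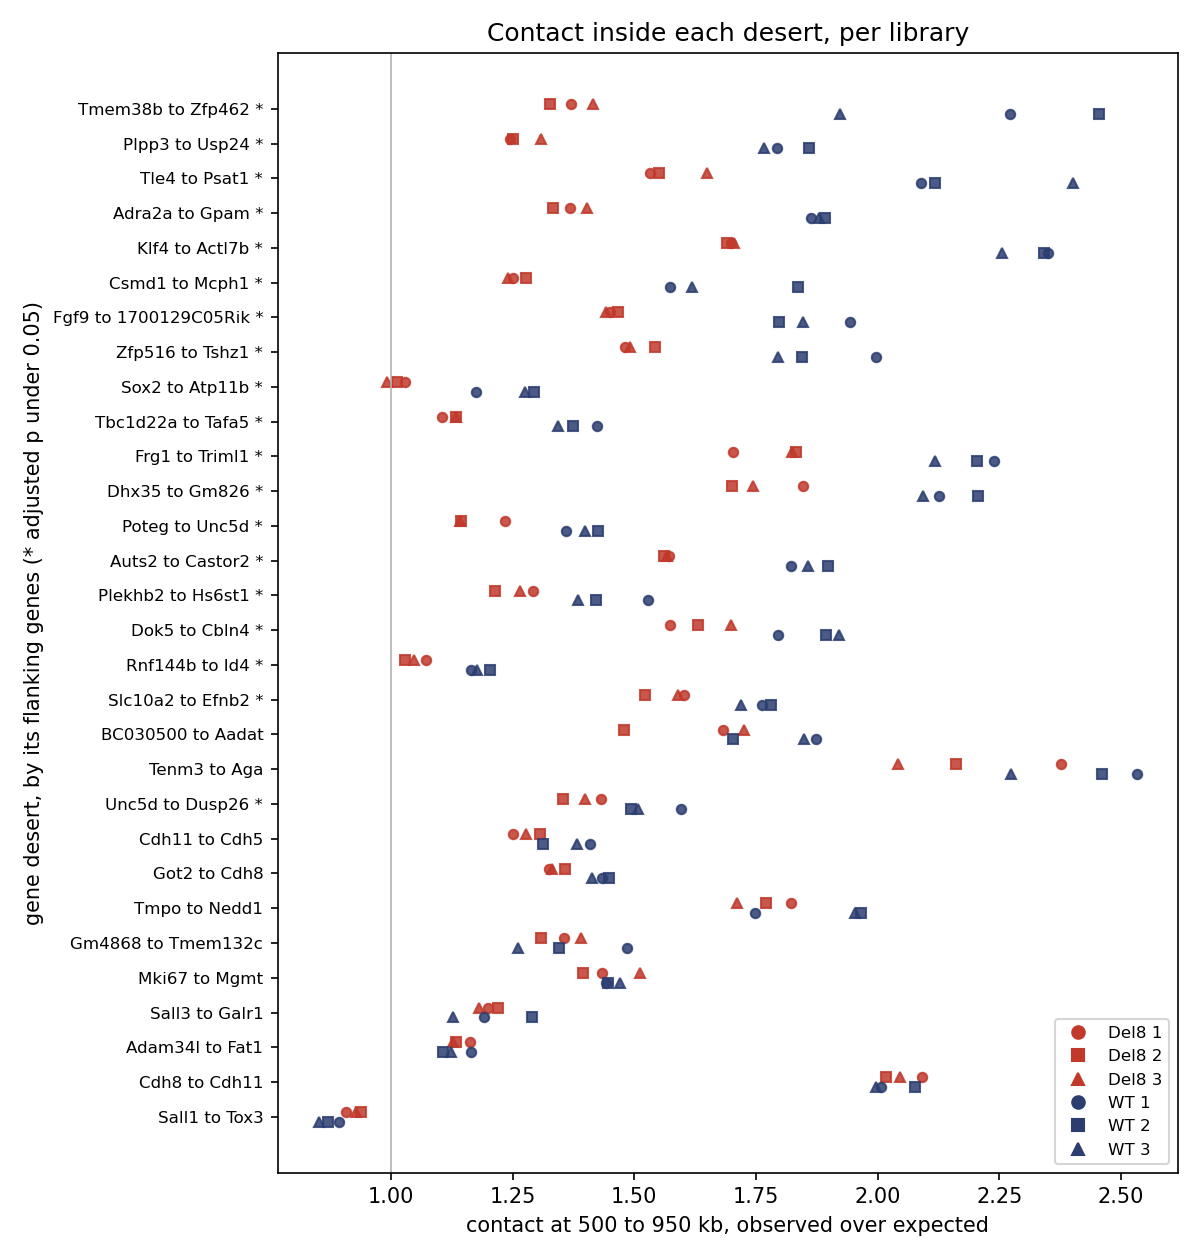
Contact at 500 to 950 kb inside 30 of the 31 deserts tested, observed over expected (x), 1 point per library, Del8 red above WT blue in each row, named by flanking genes and ordered by the log2 difference with the largest fall at the top. A star marks a limma adjusted p under 0.05; all 19 starred deserts shown are lower in Del8, and in the lowest row, Sall1 to Tox3, the Del8 points lie just above the WT points without passing the test.

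In the wider set of bins 19 of the deserts beside a regulator could be tested, and 8 were lower in Del8 than in WT replicate 3 and none higher, with a median log2 difference of -0.14. For deserts beside adhesion genes it was 13 lower and none higher of 42 (median -0.13), and for the remaining deserts 55 lower and 2 higher of 132 (median -0.17). With all 6 libraries, in the narrower set of bins, 3 of 5 deserts beside a regulator were lower (median -0.17), 2 of 6 beside an adhesion gene (median -0.12) and 15 of the remaining 20 (median -0.26). The difference between the classes was not tested. The 8 regulator deserts included both sides of Myc, a growth regulator. The desert of chromosome 15 (60921271 to 61985340) before it had 1.09, 1.03 and 0.995 in the Del8 replicates and 1.30 in WT replicate 3 (log2 difference -0.33, limma adjusted p = 0.00704), and that beyond it (61990362 to 63775970) had 1.16, 1.12 and 1.12 in the Del8 replicates and 1.30 in WT replicate 3 (-0.20, limma adjusted p = 0.0346). Sox11 to Dcdc2c on chromosome 12, beside a factor of neuronal progenitors, had 1.02, 1.06 and 1.08 in the Del8 replicates and 1.34 in WT replicate 3 (limma adjusted p = 0.00376). The desert of chromosome 11 (111726302 to 112782209) before Sox9, a factor of cartilage and testis, had 1.40, 1.40 and 1.26 in the Del8 replicates and 1.59 in WT replicate 3 (limma adjusted p = 0.0349). The others were Sox2, Bcl11a to Fancl, Pou3f2 to Mms22l and Tmem182 to Pou3f3. The 4 longest deserts had log2 differences of -0.05 (Pcdh20 to Pcdh9), -0.09 (Celf4 to Pik3c3), -0.07 (Olfm4 to Pcdh17) and -0.05 (Cntnap5b to Cdh20), with limma adjusted p between 0.308 and 0.626. Adgra3 to Ppargc1a, whose coverage was lower in Del8, was 1 of the 2 with more inner contact, at 1.26, 1.33 and 1.27 in the Del8 replicates and 1.06 in WT replicate 3 (limma adjusted p = 0.0104).

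Single pairs of bins within deserts showed a fall as well. Pairs of 100 kb bins within a desert, 100 kb to 2 Mb apart, passed the filter on counts in 1290 cases from 71 deserts. By edgeR 142 were lower and 7 higher in Del8, while 9.07% of all 150441 pairs were called, 4.25% lower and 4.82% higher. The median log2 fold change was -0.16 over desert pairs and 0.01 over all pairs. By distance the desert pairs divided into 31 lower and 6 higher of 709 at 100 to 400 kb, 78 lower and 1 higher of 383 at 500 to 900 kb, and 33 lower and none higher of 198 at 1 to 2 Mb. The shares over all pairs of each distance class were not computed, so these counts do not show a trend with distance that is particular to deserts. The lower pairs lay in 29 deserts and the higher pairs in 5. Without the deserts of chromosome 8, 73 pairs were lower and 5 higher of 613. DESeq2, run with its size factors and without the offsets for chromosome and distance of the edgeR fit, called 45 lower and none higher. That is 3.49% of the desert pairs against 3.25% of all pairs. Without WT replicates 1 and 2 edgeR called 26 lower and 2 higher, which is 2.17% of the desert pairs against 3.01% of all pairs. Taken in either direction, the share called among desert pairs was thus near or below that of all pairs in both settings. By direction, the 3.49% called by DESeq2 were all lower, against 2.02% lower and 1.23% higher over all pairs. Without WT replicates 1 and 2 the median log2 fold change was -0.09 over desert pairs and 0.02 over all pairs. In the wider set of bins 55 were lower and 8 higher of 8780, against 1.73% of all pairs, 0.779% lower and 0.953% higher.

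The pairs with the largest falls lay in 1 desert. In the desert of chromosome 8 (95888402 to 99024470) between Got2, a mitochondrial aminotransferase, and Cdh8, a cadherin of neurons, 23 of 186 pairs were lower and none higher. Its bins at 96100001 to 96200000 and 97900001 to 98000000 held 15, 12 and 18 contacts in the Del8 replicates and 29, 19 and 28 in the WT replicates. Over the mean of that distance and chromosome this was 0.722, 0.794 and 1.43 in the Del8 replicates and 3.53, 2.22 and 2.33 in the WT replicates (log2 fold change -1.49 ± 0.31, SE; edgeR adjusted p = 0.000254). The pairs of 96100001 with 97500001 and of 96200001 with 97600001 fell to 0.370 and 0.424 of the WT value (edgeR adjusted p = 0.000135 and 0.00181). At the desert's left end lies a boundary, at 95900001 to 95950000, in the bin of the Gm51586 window. Its insulation score, the log2 of contact across the bin within 500 kb over the chromosome mean, was -0.80, -0.81 and -0.89 in the Del8 replicates and -1.55, -1.47 and -1.41 in the WT replicates. The score difference was 0.64 ± 0.04 (SE; limma adjusted p = 1.58e-07), with more contact across the boundary in every Del8 library.

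The largest rises among pairs crossed a boundary inside a desert. In the desert of chromosome 8 (89044163 to 90247109) between Sall1, a zinc finger factor of kidney and limb, and Tox3, the bins at 89600001 to 89700000 and 90100001 to 90200000 held 93, 68 and 76 contacts in the Del8 replicates and 26, 22 and 30 in the WT replicates. Over the mean of the distance this was 0.629, 0.646 and 0.830 in the Del8 replicates and 0.411, 0.343 and 0.370 in the WT replicates, a 1.85-fold rise (edgeR adjusted p = 0.00162). Between them lies the boundary at 89800001 to 89850000, with scores of -0.30, -0.31 and -0.27 in the Del8 replicates and -0.62, -0.61 and -0.58 in the WT replicates (difference 0.31 ± 0.03, SE; limma adjusted p = 4.66e-06). On chromosome 10 the desert between Ctnna3, an alpha-catenin, and Reep3 showed the same arrangement. Its bins at 66600001 to 66700000 and 66900001 to 67000000 held 62, 54 and 44 contacts in the Del8 replicates and 16, 18 and 22 in the WT replicates (1.75-fold, edgeR adjusted p = 0.0225), and those at 66700001 and 66900001 rose 1.59-fold (edgeR adjusted p = 0.0139). The call was lost in 9 of 12 other settings for the first of these pairs, in 6 of 12 for the second and in 4 of 12 for the pair between Sall1 and Tox3. The boundary between them, at 66800001 to 66850000, which holds the Gm31416 window, had scores of -0.74, -0.59 and -0.69 in the Del8 replicates and -1.26, -1.33 and -1.09 in the WT replicates (limma adjusted p = 4.42e-06).

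Boundaries were few inside deserts, and the density was lower than outside them in each set of bins. On the summed map there were 12 boundaries in 597 scored desert bins, or 2.01 per 100 bins, against 4.71 per 100 outside deserts. In bins listed in Del8 replicates 1 and 2 and WT replicate 3 it was 97 boundaries in 6727 desert bins, or 1.44 per 100, against 4.66 outside. Among the 12, those of Slc4a3 to Epha4, BC030500 to Aadat and Got2 to Cdh8 lay in the outermost whole bin of their desert, at its edge. So did those of Cdh11 to Cdh5, Tmpo to Nedd1 and A1bg to Myc. By limma 7 of the 12 desert boundaries had a higher score in Del8, which means more contact across them, and 1 a lower score, while 66.4% of all 1015 boundaries were called, 50.8% higher and 15.6% lower. The share among desert boundaries was thus near that of all boundaries. After centring every library on the median over all boundaries, 6 desert boundaries were higher and 2 lower, against 32.6% higher and 32.3% lower over all boundaries. In the wider set of bins 19 were higher and 9 lower of 49, against 56.6% of all boundaries, 41.7% higher and 14.9% lower. The largest rise was at the boundary of chromosome 8 (60450001 to 60500000) near Aadat, with scores of 0.03, -0.09 and 0.12 in the Del8 replicates and -0.76, -0.54 and -0.57 in the WT replicates (limma adjusted p = 2.51e-06). The boundary of chromosome 10 (91200001 to 91250000) between Tmpo and Nedd1, in the bin of the 4930534H03Rik window, had -0.60, -0.63 and -0.68 in the Del8 replicates and -0.90, -0.93 and -0.89 in the WT replicates (limma adjusted p = 2.21e-05). The boundary near Gm39236 between Cdh11 and Cdh5 had -0.36, -0.41 and -0.36 in the Del8 replicates and -0.41, -0.40 and -0.45 in the WT replicates (limma adjusted p = 0.289).

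The depth of desert boundaries relative to the sequence 250 kb to either side, over the 9 with scored flanks, was -0.42, -0.45 and -0.47 in the Del8 replicates and -0.72, -0.68 and -0.64 in the WT replicates. It was shallower in all Del8 libraries (two-sided exact permutation p = 0.10, adjusted 0.14). Boundaries outside deserts had -0.47, -0.46 and -0.47 in the Del8 replicates and -0.57, -0.56 and -0.51 in the WT replicates. In the wider set, over 44 desert boundaries, the depth was -0.42, -0.40 and -0.40 in the Del8 replicates and -0.50 in WT replicate 3. The difference between group means was 0.099 there, against 0.235 over the 9 boundaries. Outside deserts it was 0.057 in the wider set and 0.083 in the narrower one. Among scored bins inside deserts the calls ran mainly the other way. Of 597 bins limma called 280 lower and 86 higher in Del8, while 64.4% of all bins were called, with 31.3% lower and 33% higher over all 21874 bins.

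The edges of deserts showed both movements. The score of the first bin outside a desert minus that 500 kb inside it, over 35 edges, was -0.48, -0.48 and -0.48 in the Del8 replicates and -0.67, -0.65 and -0.61 in the WT replicates (two-sided exact permutation p = 0.10, adjusted 0.14). The step from edge to interior was thus smaller in every Del8 library. Over 207 edges of the wider set it was -0.42 in each Del8 replicate and -0.61 in WT replicate 3. At 100 kb outside the edge the mean score was -0.04, -0.04 and -0.03 in the Del8 replicates and -0.13, -0.12 and -0.11 in the WT replicates. At 400 kb inside it was 0.22, 0.23 and 0.23 in the Del8 replicates and 0.36, 0.35 and 0.34 in the WT replicates.

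**Figure D4:**
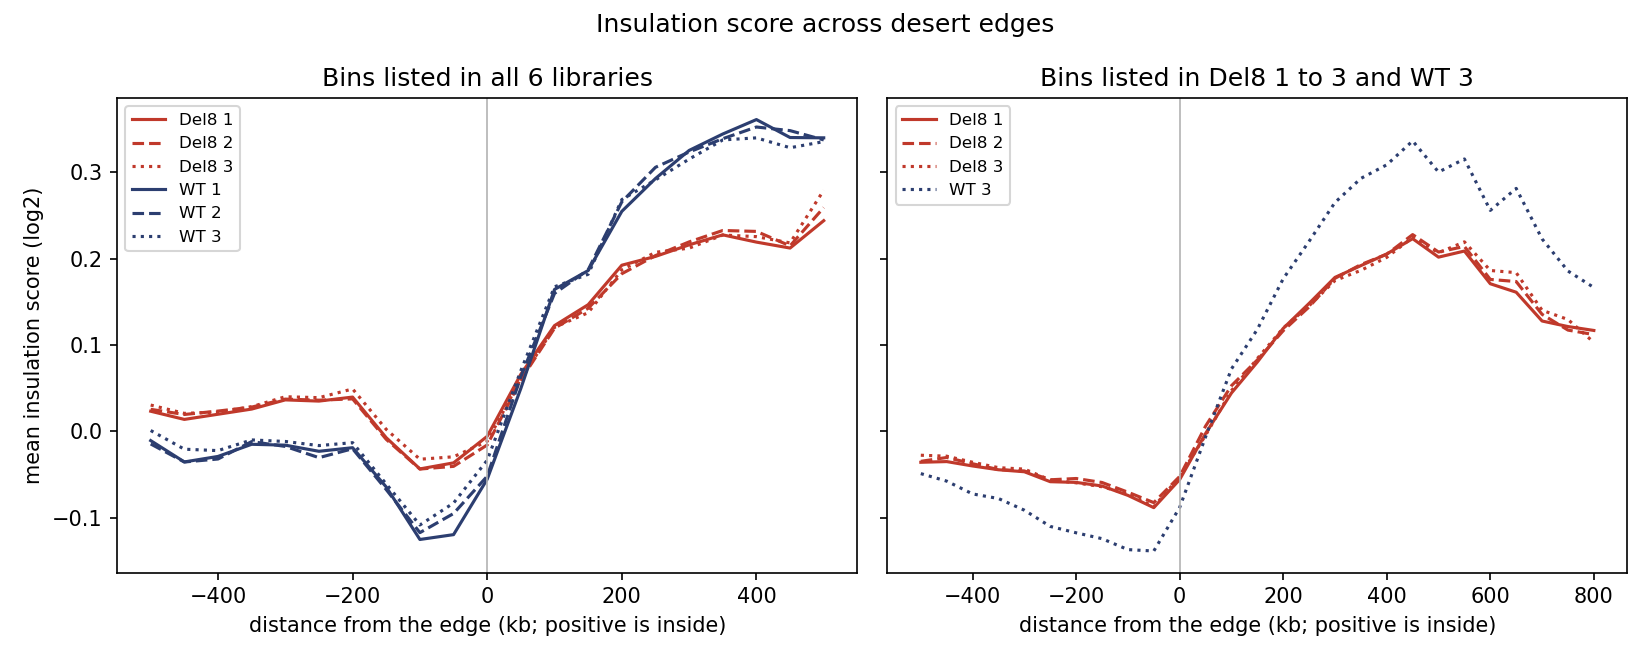
Mean insulation score (y, log2) by distance from a desert's edge (x, kb; positive values lie inside), 1 line per library, Del8 red and WT blue, for distances with 20 or more bins. Left, bins listed in all 6 libraries; right, bins listed in the 3 Del8 libraries and WT replicate 3. Del8 lines lie above WT lines outside the edge and below them in the interior.

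The share of a desert's contacts that stayed within 1 bin of 50 kb was 16.9, 17.1 and 16.4% in the Del8 replicates and 16.6, 15.7 and 13.6% in the WT replicates over all bins, with overlap (two-sided exact permutation p = 0.20). In bins listed in all 6 libraries it was 22.0, 22.1 and 22.0% in the Del8 replicates and 26.0, 24.8 and 18.1% in the WT replicates. WT replicate 3 lay below the Del8 libraries and the other WT libraries above them, as they did outside deserts (30.9, 30.6 and 30.6% in the Del8 replicates, 34.7, 34.0 and 26.4% in the WT replicates). The part of this difference between libraries in the other results was not tested. Every within-bin count on the autosomes was an even number in all 6 libraries. The sources do not say if a within-bin contact was counted more than once. The within-bin shares and the library totals therefore hold for the counts as deposited.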

How the data were processed

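The 3 Del8 and 3 WT Hi-C libraries of mouse embryonic stem cells were compared, grouped by their labels. For every library the authors deposited a list of bin pairs (50 kb, within chromosomes) with raw counts. The submitters' processing notes name mm10. Aligner and filters: not given in the sources used here. Deserts were found with a RefSeq table of the same build. Iterative correction (60 iterations, diagonal left out) balanced each chromosome's map, and values were taken over the mean for their distance. Boundaries were minima of the insulation score (500 kb square, 50% or more of it usable) on the summed map, of prominence 0.2 or above. Counts were tested with edgeR 4.0.16 (quasi-likelihood, TMM for stretches, offsets for chromosome and distance for pairs with a mean count of 10 or more), with DESeq2 1.42.0 as an alternative (size factors, without those offsets). Scores and log2 contact ratios were tested with limma 3.58.1. Adjustment was by Benjamini-Hochberg over all features, at 0.05. The rest of the autosomes was divided into runs of up to 20 bins. Single values per library were tested by exact permutation. The tests were tried on simulated data first. Named items were the 5 longest deserts and the largest rises and falls that passed (5 for deserts and boundaries, 3 for pairs). The members and lists were chosen with earlier results of these data known. Listing sets, coverage from listed bins and contact per desert were added after the data had been examined. 1 of the named deserts is not reported here.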

Additional observations from a re-analysis of the deposited data

How the results depend on the processing

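The share of contact ends in deserts (Del8 minus WT, percentage points) reversed to -0.573 without WT replicates 1 and 2, to -0.141 with only bins listed in all 6 libraries, to -0.277 with lower-coordinate bins listed in all 6 and to -0.177 with those listed in the other 4. The within-bin share reversed to -0.917 in bins listed in all 6. With bins of 20 or more contacts in every library, which keeps unlisted bins, contact at 500 kb to 2 Mb reversed to 0.434 (1.19 in Del8, 0.759 in WT), contact at 100 to 450 kb to 0.357 and boundary strength to -0.0316, and no pair and no boundary of 83 was called. Desert coverage as deposited went to 236 calls without WT replicate 3 (95.9%, against 86.7% of all stretches). It had 0 in the other sets that leave out 1 library (range 0 to 236), where no stretch was called. In bins listed in all 6 libraries it went to 13 of 160 (8.13%, against 10.7% of all stretches). With listing made equal it ranged from 23 to 96 calls with 1 library left out, and was 125 without WT replicates 1 and 2, 28 of the 72 deserts of 2 Mb or more, and 2 of 12 stretches without any annotated gene. Calls of pairs, 149 of 1290 (11.6%, against 9.07% of all pairs), ranged from 77 to 134 with 1 library left out. The 77, without WT replicate 1, were 5.97% against 6.66% of all pairs, and the 134, without WT replicate 3, 10.4% against 6.89%. Calls were 45 with DESeq2 (3.49%, against 3.25%). Against the same 9.07% they were 78 of 613 without chromosome 8 (12.7%) and 32 of 315 in deserts of 2 Mb or more (10.2%). Without any annotated gene they were 0 of 15, where 2 had an unadjusted p under 0.05. The median log2 fold change over desert pairs was -0.09 without WT replicates 1 and 2 and -0.08 in the wider set, against 0.02 over all pairs in both. Boundary calls were 2 of 2 in deserts of 2 Mb or more and 4 of 6 without chromosome 8, against 66.4% of all boundaries. In the wider set the median score difference was 0.08 over desert boundaries and over all boundaries. For contact per desert the median log2 difference there was -0.15, against 0.01 over all stretches. The cause of these shifts was not tested. The other 128 values that answer a comparison kept the sign of the difference or, for counts of calls, equalled the main count or stayed within a set factor of it. Their p-values were not held against a threshold. Of the values for single named items 253 kept their direction and an adjusted p under 0.05, and 58 kept only the direction.

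Same-numbered libraries did not deviate together (correlations from -0.24 to 0.04), so the numbers do not pair them. With the replicate block 145 pairs (11.2%), 8 boundaries (66.7%) and 63 deserts by coverage with listing made equal (25.8%) were called. It was 0 as deposited and 22 by inner contact (71.0%). Over all features the shares were 8.33, 64.6, 22.6, 0 and 53.6% in that order. The smallest paired exact permutation p was 0.25. Only 1 WT library lists most desert bins, and in comparisons with it alone the lone library was assumed to vary like the others.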
